A study of Caenorhabditis elegans with 4 samples.

Results

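The genes described here encode the receptors through which *C. elegans* cells receive Wnt signals and the protein that lets Wnt-producing cells secrete them. They are the 8 rows of the deposited table of gene counts whose names equal *lin-17*, *mig-1*, *cfz-2*, *mom-5*, *cam-1*, *lin-18*, *vang-1* and *mig-14*, chosen by gene family with a rule that uses no value, out of 19913 genes in the table. RNA-Seq was carried out on whole first-stage (L1) larvae of the wild-type strain N2 and of *pry-1(mu38)*, with 2 libraries in each strain. All animals were raised on NGM medium and synchronized by bleaching, and neither genotype carries a transgene. The *mu38* allele is a nonsense mutation in *pry-1*, the gene for the worm Axin, and it leaves WNT signaling constitutively active. The mutant is 1 outcrossed strain, so anything else that sets this strain apart from N2 cannot be told apart from the allele. The methods call the 2 libraries of a strain biological replicates.

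Wnt proteins are secreted lipid-modified ligands. They are carried out of the producing cell by Wntless, a membrane protein that is MIG-14 in the worm and that is recycled from endosomes by the retromer. On the receiving cell they bind Frizzled proteins, which are LIN-17, MIG-1, CFZ-2 and MOM-5, or the receptor tyrosine kinase-related proteins CAM-1 (Ror) and LIN-18 (Ryk). VANG-1 is the worm Van Gogh, a membrane protein of the planar cell polarity branch. Axin acts below the receptors, in the complex that marks β-catenin for destruction. In L1 larvae these genes are best known for the migration of the Q neuroblasts and other neurons, for the polarity of dividing epidermal cells and, later, for the polarity of the vulval precursors.

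The total counts on genes ranged from 27741375 to 33230854 per library, of which the 8 genes together took 8398 and 12144 in N2 and 10964 and 10619 in the mutant. The filter on low counts kept all 8, among 15101 genes that were tested. The lowest count of any member was 324, for *mom-5* in *pry-1(mu38)* replicate 1, so that no member was near the limit of detection. The 2 N2 libraries lay farther apart than the 2 mutant libraries, with a median absolute log2 difference over the genes of 0.46 against 0.14. The mutated gene itself had 70.5 and 61.9 CPM (counts per 1000000 counts on genes, with library sizes scaled by TMM) in N2 and 118.3 and 108.2 in the mutant, and a nonsense allele need not lower the count. Because whole animals were sequenced, fewer cells that express a gene and less RNA per cell cannot be told apart.

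Across the family, *lin-17*, *mig-14* and *vang-1* had higher values in both *pry-1(mu38)* libraries than in both N2 libraries, and *cam-1*, *cfz-2*, *mig-1* and *mom-5* had lower values in both. Only for *lin-18* did the strains overlap. None of the 8 genes passed edgeR's quasi-likelihood test at an adjusted p of 0.05, a threshold that 0.00662% of the tested genes passed, and none was called by DESeq2, which called 3.16% of the genes. At an unadjusted p under 0.05 in the quasi-likelihood test there was 1 gene with a higher value in the mutant, *lin-17*, beside 5.93% of all genes, and 1 with a lower value, *mig-1*, beside 8.23% of all genes. Both mutant libraries lay above both N2 libraries in 3 of the 8 genes and in 29.1% of all genes, and below both in 4 of the 8 and in 28.0% of all. The median log2 fold change of the 8 genes was -0.36, where that of all tested genes was -0.022. It moved to -0.069 when N2 replicate 2 was left out and to -0.53 when N2 replicate 1 was. With 2 libraries against 2, an exact permutation test cannot give a two-sided p below 0.333.

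**Figure D1:**
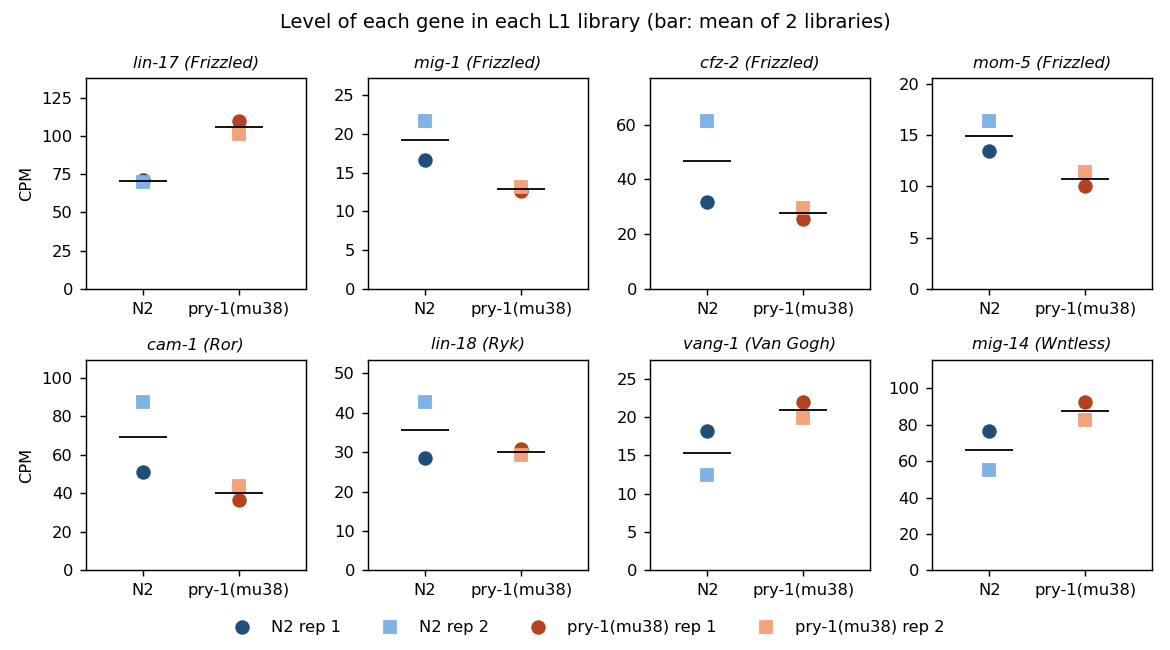
Normalized level in CPM (vertical axes, each starting at 0) of the 8 genes in the 4 libraries, with circles for replicate 1, squares for replicate 2 and a bar at the mean of a strain. The N2 libraries of *lin-17* lie on each other at 71.0 and 69.9 CPM, below the mutant libraries at 110.1 and 101.3, whereas N2 replicate 2 stands apart from N2 replicate 1 in *cfz-2*, *cam-1* and *lin-18*.

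The Frizzled gene *lin-17* gave the difference that moved least when libraries were left out. LIN-17 sets the polarity of asymmetric divisions such as that of the T cell in the tail and acts in the left Q neuroblast. The gene, WBGene00003006 on chromosome I, was counted 1939 and 2312 times in N2 and 3547 and 3250 times in the mutant. In normalized terms the level was 71.0 and 69.9 CPM in N2 and 110.1 and 101.3 CPM in the mutant. The N2 libraries thus nearly coincided, and both mutant libraries were higher. The fitted log2 fold change of *lin-17*, mutant over N2, was 0.59 (standard error, SE, 0.15), with a Benjamini-Hochberg adjusted p of 0.345 in the quasi-likelihood test of edgeR. With each library left out in turn it stayed from 0.54 to 0.67. Only 2.40% of the tested genes differed less between the N2 libraries, and 89.9% of them had a lower log2 fold change.

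The Frizzled gene *cfz-2* went the other way. The gene is WBGene00000478 on chromosome V, and CFZ-2 takes part in the migration of neurons along the anterior-posterior axis. Its levels were 31.8 and 61.5 CPM in N2 and 25.7 and 29.6 CPM in *pry-1(mu38)* (870, 2035, 827 and 950 counts). N2 replicate 2 was far above the other 3 libraries, while N2 replicate 1 lay just above the mutant libraries. The mean over strains was 46.7 ± 21.0 CPM in N2 and 27.7 ± 2.79 CPM in the mutant (SD, n = 2 libraries each). The log2 fold change of *cfz-2* was -0.76 (SE 0.35, edgeR adjusted p = 0.356), which became -0.21 when N2 replicate 2 was left out and -1.12 when N2 replicate 1 was.

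The Frizzled genes *mig-1* and *mom-5* were the least abundant of the 4 and varied alike. MIG-1 acts in the migration of the left Q neuroblast and of the HSN neurons, and MOM-5 is the Frizzled of the early embryo that orients the division of the EMS blastomere. Both lie on chromosome I, as WBGene00003238 and WBGene00003397. The levels of *mig-1* were 16.6 and 21.7 CPM in N2 and 12.6 and 13.1 CPM in *pry-1(mu38)*. Its N2 libraries were apart and its mutant libraries close together below them. The log2 fold change of *mig-1* was -0.58 (SE 0.22, edgeR adjusted p = 0.345), and -0.38 or -0.73 when N2 replicate 2 or 1 was left out. The levels of *mom-5* were 13.5 and 16.4 CPM in N2 and 10.1 and 11.4 CPM in the mutant. The strains did not overlap in this gene either. In both *mig-1* and *mom-5*, however, the gap between the nearest libraries of the strains was smaller than the distance between the N2 libraries. For *mom-5* the log2 fold change was -0.47 (SE 0.22, edgeR adjusted p = 0.358), from -0.58 to -0.33 with 1 library left out. The annotation of build WBcel235 places 66 bases of the exons of *mom-5* over those of *tsp-7* on the other strand, and whether the counting used strand is not stated.

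The make-up of the Frizzled transcripts within a library does not depend on how libraries are scaled. Per kilobase of exon, *lin-17* made up 51.9% and 39.7% of the Frizzled counts in N2 and 68.2% and 63.8% in the mutant. Its share was larger in both mutant libraries than in either N2 library. The share of *cfz-2* was 24.7% and 37.1% in N2 against 16.9% and 19.8% in the mutant, that of *mig-1* was 14.6% and 14.9% against 9.40% and 9.94%, and that of *mom-5* was 8.74% and 8.28% against 5.53% and 6.40%. The 3 other Frizzled genes thus each took a smaller share in both mutant libraries. Shares are parts of one sum, so a larger share of *lin-17* leaves less for the others together, whatever their own levels. On raw counts, where a binomial error applies, *lin-17* took 1939 of 3631 Frizzled counts in N2 replicate 1, or 53.4% with a 95% Wilson interval from 51.8% to 55.0%, and 3250 of 4987 in *pry-1(mu38)* replicate 2, or 65.2% with an interval from 63.8% to 66.5%. These intervals cover counting error only; the N2 libraries differed from each other by more than that, since N2 replicate 2 was at 41.2%. The shift in the mean share of *lin-17* was 20.2 percentage points, with 14.1 points left when N2 replicate 2 was dropped and 26.3 when N2 replicate 1 was. The summed level of the 4 Frizzled genes did not separate the strains. It was 132.9 and 169.5 CPM in N2 and 158.4 and 155.5 CPM in *pry-1(mu38)*. The ratio of *lin-17* to *cfz-2* counts was 2.23 and 1.14 in N2 and 4.29 and 3.42 in the mutant, while that of *mig-1* to *mom-5* was from 1.14 to 1.32 in all 4 and overlapped between strains.

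**Figure D2:**
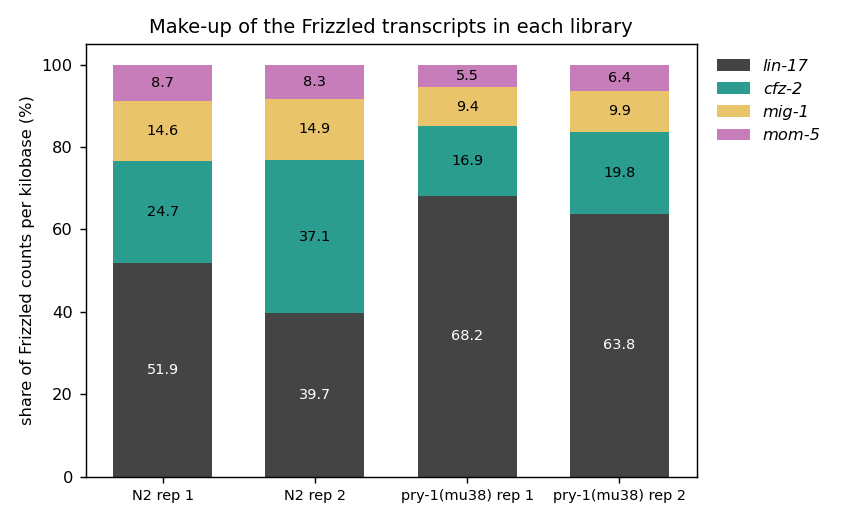
Share of each Frizzled gene (stacked bars, in percent of the summed counts per kilobase of exon of the 4 genes) in each library. The *lin-17* part reaches 68.2% and 63.8% in the *pry-1(mu38)* libraries and 51.9% and 39.7% in the N2 libraries, and N2 replicate 2 carries the largest *cfz-2* part, 37.1%.

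The Ror gene *cam-1* had, with *cfz-2*, the lowest log2 fold changes of the family when all 4 libraries were used. CAM-1 guides migrating neurons such as CAN, can limit the range of Wnts by binding them, and acts at the neuromuscular junction in placing acetylcholine receptors. The gene is WBGene00000289 on chromosome II. Its levels were 50.9 and 87.4 CPM in N2 and 36.6 and 43.9 CPM in *pry-1(mu38)* (1392, 2891, 1180 and 1407 counts). As in *cfz-2*, N2 replicate 2 was far above the rest. The log2 fold change of *cam-1* was -0.78 (SE 0.30, edgeR adjusted p = 0.345), which became -0.34 when N2 replicate 2 was left out and -1.09 when N2 replicate 1 was. A fit with the replicate number as a block, a pairing that the labels do not state, called *cam-1* and *cfz-2* lower, beside 11% of all genes, and no member higher, beside 4.46%. The count ratio of *cam-1* to *cfz-2* was 1.42 in N2 replicate 2 and 1.43 and 1.48 in the mutant, and higher in N2 replicate 1, so both genes differed between libraries to about the same extent.

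The Ryk gene *lin-18* (WBGene00003007, chromosome X), which works with *lin-17* in orienting the vulval precursor P7.p, gave no stable direction. It had 28.5 and 42.7 CPM in N2 and 30.8 and 29.4 CPM in *pry-1(mu38)*. N2 replicate 1 was below both mutant libraries and N2 replicate 2 above them. The log2 fold change of *lin-18* was -0.24 (SE 0.25, edgeR adjusted p = 0.593), and it turned to 0.071 when N2 replicate 2 was left out and to -0.47 when N2 replicate 1 was. Its exons share 84 bases with a gene on the other strand, C16B8.2.

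The Wntless gene *mig-14* (WBGene00003246, chromosome II) and the Van Gogh gene *vang-1* (WBGene00015171, chromosome X) had higher values in the mutant and varied together. MIG-14 is needed in the cells that send Wnts, and its loss causes defects in Q neuroblast migration, whereas VANG-1 acts in the polarity of neurons and of the intestinal primordium. The levels of *mig-14* were 76.7 and 55.0 CPM in N2 and 92.5 and 82.5 CPM in *pry-1(mu38)*. Those of *vang-1* were 18.2 and 12.4 CPM in N2 and 21.9 and 19.8 CPM in the mutant. In both genes N2 replicate 2 was the lowest library and N2 replicate 1 came close to *pry-1(mu38)* replicate 2. The log2 fold change of *mig-14* was 0.41 (SE 0.22, edgeR adjusted p = 0.387), and 0.18 or 0.70 when N2 replicate 2 or 1 was left out. The log2 fold change of *vang-1* was 0.45 (SE 0.25, edgeR adjusted p = 0.401), and 0.19 or 0.78 in the same order. The exons of *vang-1* share 113 bases with those of B0410.3 on the other strand, and those of *mig-14* with no gene.

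**Figure D3:**
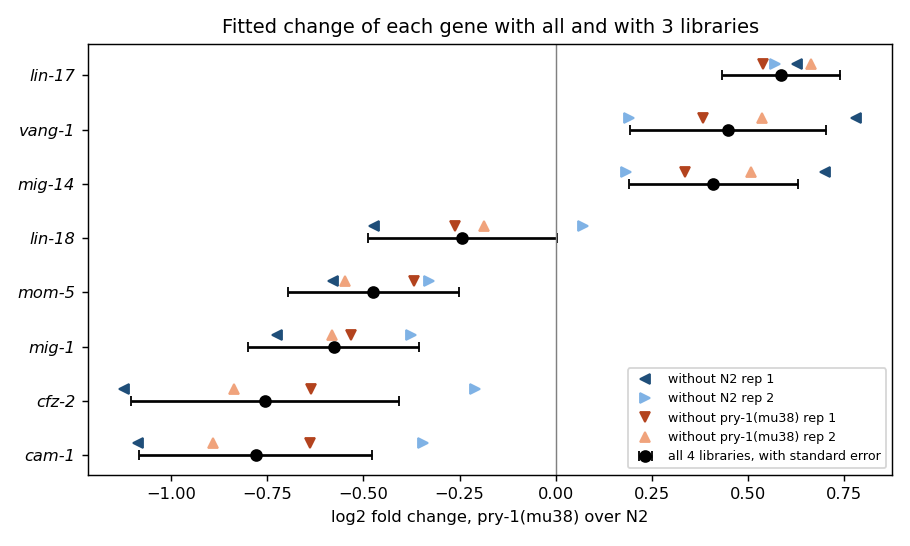
Fitted log2 fold change of *pry-1(mu38)* over N2 (horizontal axis) for each gene, as a black circle with its standard error from all 4 libraries and as triangles from 3 libraries. The triangles of *lin-17* stay between 0.54 and 0.67, those of *cfz-2* reach from -1.12 to -0.21, and that of *lin-18* without N2 replicate 2 crosses 0.

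To compare levels between genes, CPM was divided by the exon length in kilobases of the WBcel235 annotation. In N2 the means in CPM per kilobase were 35.8 for *mig-14*, 31.9 for *lin-17*, 22.5 for *cfz-2*, 20.8 for *cam-1*, 18.9 for *lin-18*, 10.5 for *mig-1*, 7.69 for *vang-1* and 6.02 for *mom-5*. The libraries of neighbours in this order overlapped except between *lin-17* and *cfz-2* and between *lin-18* and *mig-1*, so that 3 tiers of expression were set apart on this scale. In *pry-1(mu38)* the order was *lin-17* at 48.0 and *mig-14* at 47.6, which overlapped, then *lin-18* at 15.98, *cfz-2* at 13.3, *cam-1* at 12.1, *vang-1* at 10.5, *mig-1* at 7.03 and *mom-5* at 4.33 CPM per kilobase. Here only *lin-17* with *mig-14* and *cfz-2* with *cam-1* overlapped. The step from the top pair of genes to the next was thus wider in the mutant, and *vang-1* stood above *mig-1* in both mutant libraries. In N2 replicate 1 *vang-1* was level with *mig-1*, at 9.14 against 9.08 CPM per kilobase. It was below *mig-1* only in N2 replicate 2, at 6.23 against 11.9. With coding length in place of exon length, a choice made after the values were seen, *lin-17* came before *mig-14* in N2 too, at 42.1 and 39.99 CPM per coding kilobase. The lowest N2 library of *mig-14*, at 33.4, then lay below the highest of *cfz-2*, at 35.5, so that in N2 only the step from *lin-18* to *mig-1* kept neighbours apart. In the mutant *lin-17* and *mig-14* were then separate, and *lin-18* with *cfz-2* and *cam-1* with *vang-1* overlapped as well.

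N2 replicate 2 stood at an end of the range in every one of the 8 genes. It was the highest library for *mig-1*, *cfz-2*, *mom-5*, *cam-1* and *lin-18* and the lowest for *lin-17*, *mig-14* and *vang-1*. Among all tested genes it was the highest library in 39.6% and the lowest in 40.6%, and so at an end in 80.2%. In 7 of the 8 genes, all but *lin-18*, the libraries followed one order, from N2 replicate 2 through N2 replicate 1 and *pry-1(mu38)* replicate 2 to *pry-1(mu38)* replicate 1, upwards or downwards; 35.5% of all genes did so. This order was looked for after the values had been seen. The log2 difference of N2 replicate 2 over N2 replicate 1 was 0.95 for *cfz-2*, 0.78 for *cam-1*, 0.58 for *lin-18*, 0.39 for *mig-1*, 0.29 for *mom-5*, -0.48 for *mig-14*, -0.55 for *vang-1* and -0.022 for *lin-17*. In *cfz-2*, *lin-18*, *mig-14* and *vang-1* this difference between libraries of 1 strain was larger than the fitted difference between the strains, and in *cam-1* both were 0.78 in size. In *mig-1* and *mom-5* it was smaller, and in *lin-17* it was near 0.

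**Figure D4:**
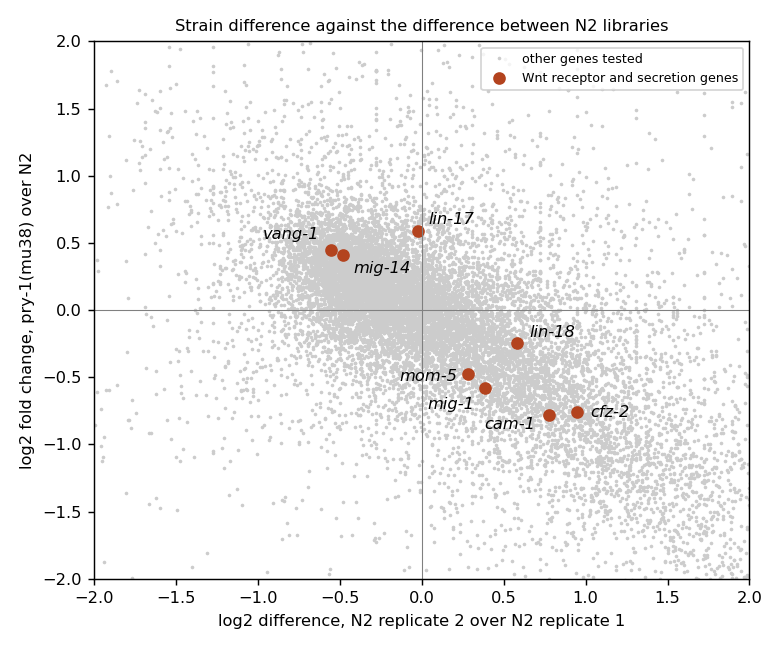
Fitted log2 fold change between the strains (vertical axis) against the log2 difference between the N2 libraries (horizontal axis) for the 8 genes in orange-red and the other tested genes in grey; 855 genes outside the axes or at 0 in an N2 library are not drawn. Both axes use the N2 libraries, so they are not independent; *lin-17* sits at -0.022 on the horizontal axis and 0.59 on the vertical one, and *cfz-2* at 0.95 and -0.76.

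Likeness between genes was measured as the Euclidean distance of their log2 CPM, centred on the mean of the 4 libraries, so it describes 4 values and no more. Within the family the closest pairs were *vang-1* and *mig-14* at 0.069, *cfz-2* and *cam-1* at 0.14 and *mig-1* and *mom-5* at 0.15, and the farthest pair was *cfz-2* and *vang-1* at 1.59. Among 11071 tested genes with a mean of at least 100 counts, those nearest to *lin-17* were *vab-7* at 0.0098, *gcy-35* at 0.033 and *spd-3* at 0.045. The homeobox gene *vab-7* had 4.03 and 3.96 CPM in N2 and 6.21 and 5.77 in the mutant, a lower level than that of *lin-17* with a similar profile over the libraries. Those nearest to *cfz-2* were *unc-17* at 0.030, *unc-41* at 0.038 and W05H12.1 at 0.039. The vesicular acetylcholine transporter gene *unc-17* had 93.5 and 176.3 CPM in N2 and 74.7 and 87.3 in the mutant. Its highest value in N2 replicate 2 follows from its choice as the nearest gene, and 39.6% of all tested genes were highest there.

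The other genes of the pathway were read from the same fit, as 8 lists with 36 genes. One of them, *fmi-1*, is not analysed here, and the other 35 were tested. No gene passed the quasi-likelihood test of edgeR over all genes. At an unadjusted p under 0.05 in that test, 3 had a higher value in the mutant, beside 5.93% of all genes. None had a lower value at that threshold, beside 8.23% of all genes. DESeq2 called 1 of the pathway genes, *pry-1*, beside 3.16% of all genes. Of the 35 genes, 17 lay above N2 in both mutant libraries and 2 below, beside 29.1% and 28.0% of all genes. A log2 fold change above 0 was found in 28 of them, with a median of 0.20, and in 48.4% of all genes. The median of a list was lowest in N2 replicate 2 in 6 of the 8 lists, and that over all 35 genes was 0.074 without it and 0.36 without N2 replicate 1.

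Among the 5 ligands, *mom-2*, the Wnt of the early embryo, had 9.59 and 6.29 CPM in N2 and 17.3 and 16.2 CPM in the mutant. Its fitted log2 value was 1.08 (SE 0.28, edgeR adjusted p = 0.345), and 0.80 or 1.445 when N2 replicate 2 or 1 was left out. The ligand *egl-20*, made in the tail and read by LIN-17 and MIG-1 in the left Q neuroblast, had 464 and 336.1 CPM in N2 and 538 and 475.5 CPM in the mutant, at a log2 fold change of 0.34 (SE 0.22), and at 0.12 or 0.62 when N2 replicate 2 or 1 was left out. The other ligands, named after their values were seen, did not go the same way. The value of *cwn-1* was -0.21 (SE 0.15), below N2 in both mutant libraries, *cwn-2* stood at -0.65 (SE 0.42) and *lin-44* at 0.13 (SE 0.21), and the last pair overlapped between strains. Without N2 replicate 2 *cwn-2* was at 0.020 and *lin-44* at -0.073, and without N2 replicate 1 they were at -1.07 and 0.40. The genes that act with *mig-14* in Wnt secretion and retromer recycling had a median of 0.21, with 5 of 10 above N2 in both mutant libraries, beside 29.1% of all genes, and none below. That median was 0.054 when N2 replicate 2 was left out and 0.39 when N2 replicate 1 was. Of these, the retromer subunit genes *vps-35* and *vps-26* stood at 0.31 (SE 0.22) and 0.32 (SE 0.23), with 0.078 and 0.074 when N2 replicate 2 was left out and 0.62 and 0.64 when N2 replicate 1 was. The gene *plr-1*, whose product removes Frizzled from the cell surface, had 40.1 and 40.0 CPM in N2 and 50.8 and 47.2 CPM in the mutant. Like *lin-17*, it was at one level in both N2 libraries, and its log2 fold change was 0.29 (SE 0.16, edgeR adjusted p = 0.386). The secreted Frizzled-related gene *sfrp-1* overlapped between strains, at -0.20 (SE 0.47), and took values from -0.62 without N2 replicate 1 to 0.44 without N2 replicate 2; with the mutant libraries left out in the order of their numbers it was 0.13 and -0.57.

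Prickle, the partner of Van Gogh, is encoded by *prkl-1*, which had 36.2 and 51.8 CPM in N2 and 32.7 and 37.7 CPM in *pry-1(mu38)* and so overlapped. Its log2 fold change was -0.32 (SE 0.24), and it was -0.044, -0.53 and -0.20 with N2 replicate 2, N2 replicate 1 and *pry-1(mu38)* replicate 1 left out. Below the receptors, the Dishevelled genes *dsh-2* and *dsh-1* stood at 0.41 (SE 0.28) and 0.082 (SE 0.16), and *dsh-1* was from 0.0031 without N2 replicate 2 to 0.19 without N2 replicate 1, with 0.016 and 0.18 in the absence of *pry-1(mu38)* replicates 1 and 2. In the destruction complex, *pry-1* stood at 0.78 (SE 0.17) and *apr-1*, the worm APC, at 0.59 (SE 0.27). The TCF gene *pop-1* stood at 0.72 (SE 0.29) and the β-catenin gene *sys-1* at 0.49 (SE 0.31). Several of these values rested on N2 replicate 2, without which *dsh-2* was at 0.095, *apr-1* at 0.28, *pop-1* at 0.38 and *sys-1* at 0.14. Without N2 replicate 1 they were at 0.84, 1.008, 1.17 and 0.98, while *pry-1* stayed at 0.68 and 0.90. Of the Hox genes under WNT control, *mab-5*, which is switched on in the left Q neuroblast, had 31.4 and 25.1 CPM in N2 and 43.1 and 38.2 CPM in the mutant. Its log2 fold change was 0.53 (SE 0.20, edgeR adjusted p = 0.345). That value was 0.37 or 0.73 when N2 replicate 2 or 1 was left out. The gene *egl-5* overlapped between strains and stood at 0.33 (SE 0.23), with 0.098 or 0.63 when N2 replicate 2 or 1 was left out. The gene *lin-39* overlapped too, at 0.15 (SE 0.27), and turned to -0.055 without *pry-1(mu38)* replicate 1.

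Markers of tissues that could carry these genes were read in the same way, and their part in the differences was not tested. The counts of markers above and below N2 in both mutant libraries stand beside 29.1% and 28.0% of all tested genes. All 10 pan-neuronal markers were tested, with 3 above N2 in both mutant libraries, 6 below and a summed level of 2389 and 2778 CPM in N2 and 2466 and 2472 CPM in *pry-1(mu38)*. The synaptic genes *snt-1*, *unc-31* and *unc-13* were, like *cfz-2* and *cam-1*, highest in N2 replicate 2, beside 39.6% of all tested genes. These synaptic genes stood at 285.8, 218.5 and 633.3 CPM in that library against 172.2, 130.6 and 423.9 in N2 replicate 1. In contrast, *rgef-1* and *unc-64* differed little between the N2 libraries, and *egl-3* was lower in N2 replicate 2, at 860 against 959.1 CPM. The 3 markers above N2 in both mutant libraries were *unc-119*, *ric-4* and *egl-3*. The 6 body wall muscle markers summed to 13120 CPM in N2 replicate 1, 23540 in N2 replicate 2, and 13030 and 13000 in the mutant, with 2 below N2 in both mutant libraries and none above. Of the 8 hypodermis and seam markers 6 were tested, 3 above and 1 below, and they summed to 298.1 and 264.3 CPM in N2 and 290.6 and 274.9 in the mutant. Among them, *lin-26* was at most 0.18 CPM in every library and *nhr-73* at 0 in N2 replicate 1. The exons of *lin-26* share 156 bases with those of *lir-1* on the same strand, and the effect on its count was not tested. The 7 intestine markers summed to 2308 and 2383 CPM in N2 and 2233 and 2089 in the mutant, with 1 above and 3 below. The 11 oocyte and embryo markers summed to 67.2 and 72.4 CPM in N2 and 86.8 and 85.4 in the mutant, with 6 above and none below. Most of each sum was *mex-3*, at 52.18 and 45.15 CPM in N2 and 57.96 and 54.88 in the mutant. DESeq2 called 1 of the 11, *cpg-2*, beside 3.16% of all genes, and the quasi-likelihood test did not call it. The median log2 CPM of the 11 relative to the 4-library mean was -1.01 in N2 replicate 1 and from 0.091 to 0.17 in the other libraries. The 9 molting genes had their lowest sum in N2 replicate 2, 533.1 CPM against 821.1, 805.2 and 905.3 in the other libraries, with 2 above and none below. Not all of them followed the sum, since *nas-36* and *mlt-10* were highest in N2 replicate 2, at 29.2 and 5.89 CPM.

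**Figure D5:**
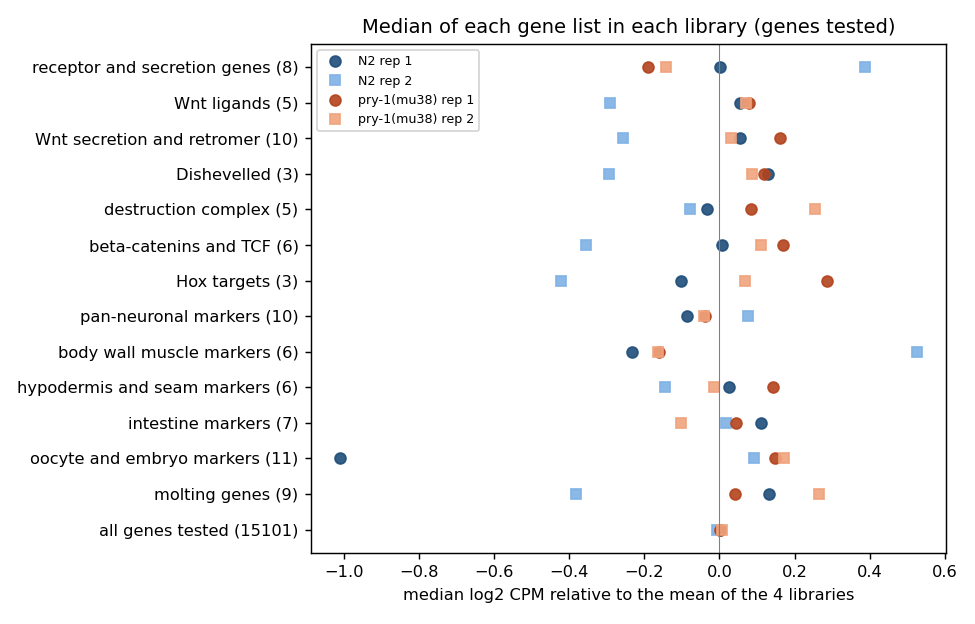
Median log2 CPM of each list relative to the mean of the 4 libraries (horizontal axis) in each library, with the number of genes tested in brackets and lists of under 3 genes left out. N2 replicate 2 (light blue squares) stands at 0.39 for the receptor and secretion genes and 0.53 for the body wall muscle markers, and below 0 for each of the other Wnt pathway lists drawn, while the median over all tested genes lies near 0 in every library.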

How the data were processed

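RNA of whole synchronized L1 larvae was sequenced in 2 N2 and 2 *pry-1(mu38)* libraries, grouped by their titles. The authors deposited raw read counts per gene, in whole numbers. Their methods name cutadapt/trimgalore, Bowtie and the build ce6, eXpress, quantile normalization and DESeq, and the design text names BWA. The deposited counts are not quantile normalized; the counter, annotation and strand setting are not given in the sources used here. Its summary lines (reads outside genes, ambiguous or aligned several times) were left out; the last made up 8.04% to 11.6% of a library.

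Log2 fold changes were fitted with edgeR 4.0.16 in R 4.3.3: filterByExpr (minimum count 10), TMM, quasi-likelihood test over all genes, Benjamini-Hochberg adjustment, threshold 0.05. CPM uses TMM-scaled library sizes; a standard error is the fold change over the root of its F statistic. The fit was also run on simulated counts that varied less between libraries than these data, so that run does not measure its power here. Exon lengths come from WBcel235, a later build than that of the counts, so no coordinates are printed. Alternatives were DESeq2 1.42.0, quantile normalization (limma 3.58.1) with DESeq2, edgeR's exact test, no TMM, other filters, a replicate block and each library left out, where a lone library was assumed to vary like the others.

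The members, lists and tests were chosen with earlier results of these data known. Named are the 8 members, *pry-1*, up to 2 genes with the lowest p of each pathway list, and the 3 genes nearest in profile to *lin-17* and *cfz-2*. The marker genes, the ligands beyond this rule and *lin-39* were chosen after their values were seen.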

Additional observations from a re-analysis of the deposited data

How the results depend on the processing

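Of 88 values of the 8 genes under 11 alternatives, 85 kept their direction and their side of the threshold. The value of *lin-18* reversed to 0.071 without N2 replicate 2, and its values with 1 library left out ran from -0.47 to 0.071. With a replicate block, 2 members passed, *cfz-2* at -0.68 (edgeR adjusted p = 0.0476) and *cam-1* at -0.74 (edgeR adjusted p = 0.0246), as did 3 pathway genes, *mom-2*, *pry-1* and *pop-1*, and 2327 genes in all; it changed no other call of a member. The libraries share only a number, and the differences between replicates of the strains correlated at 0.465 over 15090 genes. The number of genes called, 1 in the quasi-likelihood test, was 477 with DESeq2, 508 with DESeq2 after quantile normalization, 284 with the exact test and 0 without a filter (0 members in each), and from 0 to 512 with 1 library left out, the lowest when that was N2 replicate 1 and the highest when it was *pry-1(mu38)* replicate 2. DESeq2 called 1 pathway gene. With 1 library left out, the median of the members was from -0.53 to -0.069 and that of the pathway genes from 0.074 to 0.36. On raw counts in place of counts per kilobase, the change of the Frizzled share was -4.47 points for *mig-1*, against -5.09, and -3.05 for *mom-5*, against -2.55. The filter on low counts kept 2 hypodermis and seam markers, *lin-26* and *nhr-73*, out of the test, and no member. Scaling moved the median of all genes by less than 0.1 on the log2 scale.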
